A study of Mus musculus with 18 samples.

Results

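The 43 genes described here encode complement components, clotting factors, the proteins that inhibit these cascades and the proteins that dissolve clots. They were chosen by name as members of the pathways, a rule that uses no measured value, though earlier results of these data were known when they were chosen. The arrays named 21153 genes, and 19598 of them, all 43 members included, had a probe that passed the filter on dim signals. The members were read on 54 probes, of which the brightest stood for each of the 10 members with several probes, and all 43 lay well above background on all 18 arrays.

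Liver RNA came from male C57BL/6 mice fed from 6 weeks of age a low fat diet (LFD, 10% fat) or a high fat diet (HFD, 60% fat). After 10 weeks of feeding some mice of each diet received methotrexate at 50 mg/kg intraperitoneally for 5 rounds (LFD MTX50 and HFD MTX50), and livers were taken 1 week after the last of these. Methotrexate is an antifolate that blocks dihydrofolate reductase and is used against cancers and in autoimmune disease. The untreated groups, LFD and HFD, had 4 mice each and the treated groups 5 each, with 1 array per mouse and no pooling. The mice carried no transgene that the labels name, and the labels do not describe an injection of vehicle into the untreated mice.

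Complement and coagulation are cascades of plasma proteases in which each activated factor cleaves the next. Complement starts on antibody through C1q, on sugars through mannose-binding lectins or by spontaneous turnover of C3, and ends in a pore built from the terminal components. Coagulation ends in thrombin, which turns fibrinogen into fibrin, and plasmin dissolves the clot. Hepatocytes secrete most of these proteins, C1q and properdin come largely from macrophages and other myeloid cells, and several of the hepatocyte genes are acute phase genes that interleukin-6 raises through STAT3.

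Levels are given as log2 of the processed signal relative to the 75th percentile of the same array, so 0 is the 75th percentile and a difference of 1 is a doubling. A level belongs to its probe, and levels of different genes are not compared. A member is called changed at an adjusted p below 0.05 in limma's empirical Bayes test, adjusted over all probes tested. The arrays lay on 6 slides. The LFD mice filled a slide of their own, as did LFD MTX50 mice 1 to 4, and HFD mice 3 and 4 shared a slide with HFD MTX50 mice 1 and 2. No slide held mice of both groups in HFD vs LFD, LFD MTX50 vs LFD or HFD MTX50 vs LFD MTX50, so slide and group cannot be told apart there, nor in the difference of effects, which rests on the LFD arm. In bulk liver, fewer cells of a type and less RNA per cell cannot be told apart. The 6 hepatocyte markers (albumin and transthyretin among them) lay well above background on all 18 arrays. The log2 of their summed level ran from 9.08 to 9.32 in LFD mice and 8.90 to 9.08 in HFD mice, and in treated mice from 9.24 to 9.47 on LFD and 8.76 to 9.20 on HFD.

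Livers of HFD mice had lower levels of fibrinogen, several serine protease inhibitors, the clotting factors F7 and F10 and the complement genes C1ra, C2, C8b, Cfi and Masp1 than livers of LFD mice. In HFD vs LFD 14 of the 43 members were called, all 14 lower and none higher. Among all genes tested 28.3% were called, 10.4% lower and 18% higher. The called differences ran in size from 0.36 (Kng1) to 1.15 (C8b). The median difference of the 43 members was -0.34, against 0.08 over all genes, and 39 members had a lower mean in HFD. Of the 6 hepatocyte markers 2 were called, both lower: Cps1 of the urea cycle (-1.24, adjusted p = 0.00498) and the transcription factor gene Hnf4a (-0.55, adjusted p = 0.0178), while albumin (Alb) differed by -0.23 (adjusted p = 0.116) and transthyretin (Ttr) by -0.18 (adjusted p = 0.175). Their part in the members' levels was not tested. With slide as a random block, C1ra alone remained called (adjusted p = 0.046). The count was 4 without HFD mouse 3, 9 without HFD mouse 2, HFD mouse 4 or LFD mouse 4, and 8 without LFD mouse 2. Quantile normalization left 6 calls, all lower, and normexp background correction none by limma (21 members had an unadjusted p below 0.05).

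Methotrexate-treated HFD mice had higher levels of C3, C4b, Hc, C8b, all fibrinogen chains, prothrombin, plasminogen and several inhibitors than untreated HFD mice. In HFD MTX50 vs HFD 19 of the 43 members were called, all 19 higher, where 11% of all genes were called, 4.83% higher and 6.13% lower. The median of the members was 0.37, against -0.04 over all genes, and 36 members had a higher mean. Within the slide that both groups shared, with 2 mice of each, the median was 0.43 and 36 of the 43 members were higher. All 19 were among these, but they had been called in a fit that holds the same mice. In a test whose spread came from the other arrays as well, 4 members were called there: C1ra (1.26, adjusted p = 0.00479), Cfi (0.86, 0.00969), Serpinf2 (0.75, 0.0474) and Serpind1 (0.45, 0.0374). With slide as a random block 15 of the 19 remained called, and with slide as a fixed block none did (12 members had an unadjusted p below 0.05). A fit of the 9 HFD and HFD MTX50 mice alone called none by limma, with 22 at an unadjusted p below 0.05. The count was 4 without HFD mouse 3, 5 without HFD mouse 4, 8 without HFD MTX50 mouse 5 and 9 without HFD mouse 2. C1ra, Cfi, Fga and Fgb stayed called whichever mouse was left out. Under normexp background correction no member was called by limma (5 had an unadjusted p below 0.05), and the members' median, 0.25, lay below the median of all genes, 0.38. HFD vs LFD and HFD MTX50 vs HFD share the 4 HFD mice, so the members' values in them are given side by side and not counted as separate support.

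On the low fat diet methotrexate was accompanied by higher levels of the fibrinogen chains Fga and Fgb, C3, C4b, factor B, plasminogen and kininogen and by lower levels of C6, C8a and Masp2. In LFD MTX50 vs LFD 16 members were called, 13 higher and 3 lower (C6, C8a and Masp2), where 28.1% of all genes were called, 17.6% higher and 10.5% lower. The median was 0.32, against 0.10 over all genes. With slide as a random block Kng1 alone remained called (adjusted p = 0.0474). C3, C6, Cfb, Cfi, F12, Fgb, Plg and Kng1 stayed called whichever mouse was left out. The count was 10 without LFD mouse 1 or LFD MTX50 mouse 3, and 9 without LFD mouse 2, LFD mouse 3 or LFD MTX50 mouse 1. When arrays were scaled to the median of probes above background everywhere, the split was 6 higher and 5 lower. Under normexp the median of the members was 0.052 and that of all genes 0.46, and 1 member was called, lower. The treatment comparisons of the diets share no mice, and 9 members, 9 of the 19 and 9 of the 13, were called higher in each: C3, C4b, Cfb, Cfi, F2, Fga, Fgb, Kng1 and Plg. Of all genes 1.02% were called higher in each, which was 21% of those higher on HFD and 5.77% of those higher on LFD, and of the members 20.9%, 47.4% and 69.2%.

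Between the treated groups 12 members were called in HFD MTX50 vs LFD MTX50, 11 lower and 1 higher (C8a), where 16.1% of all genes were called, 8.75% lower and 7.37% higher. The lower ones were Cfb, Masp1, Mbl2, F7, F10, F12, F13b, Fgb, Plg, Proc and Kng1. The median was -0.24, against -0.06 over all genes. The 6 hepatocyte markers all had a lower mean in HFD MTX50, with a median difference of -0.49, and 3 of them were called lower; their part in the members' levels was not tested. None of the 12 remained called by limma with slide as a random block (14 members had an unadjusted p below 0.05) or when the treated mice were fitted alone (15 had). The count was 3 without HFD MTX50 mouse 4, 7 without HFD MTX50 mouse 3 or LFD MTX50 mouse 2, 6 without LFD MTX50 mouse 1 and 5 without LFD MTX50 mouse 3; F7, F12 and Kng1 stayed called whichever mouse was left out.

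The effect of treatment on HFD minus that on LFD was called for 4 members, C1ra, C2, C8a and C8b, all positive, where 26.8% of all genes were called, 8.66% positive and 18.1% negative. The share of members called was 9.30%, near the 8.66% of all genes called positive. The median of the members was 0.11, against -0.11 over all genes, and it turned to -0.11 under quantile normalization. With slide as a random block the adjusted p was 0.033 for C1ra, the only one of the 4 still called. In none of these 5 comparisons was a call made for C1qa, C1qb, C8g, C9, Cpb2, F11, F5, F9, Klkb1 or Mbl1, which are 10 of the 43.

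**Figure D1:**
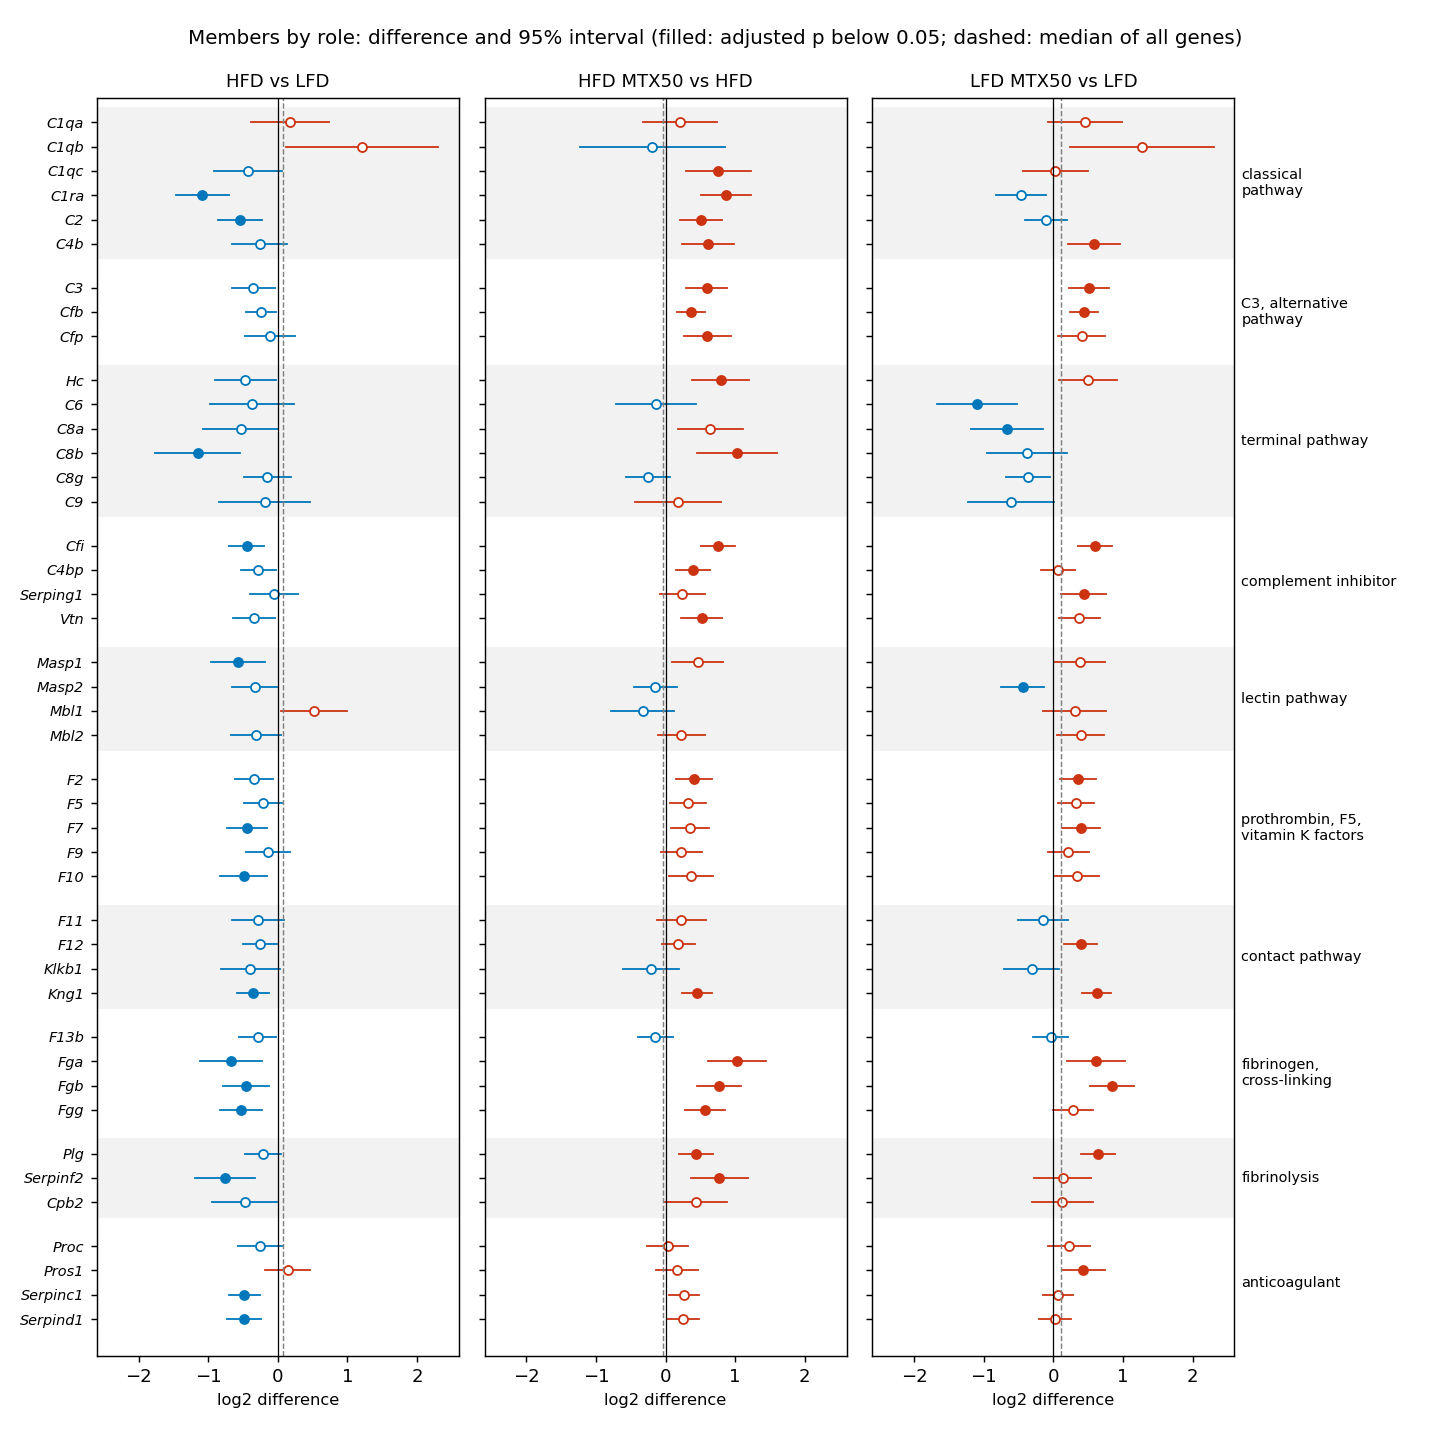
Log2 difference (x axis) of each of the 43 members, grouped by role, for diet (HFD against LFD) and for treatment on HFD and on LFD. Points are limma estimates with 95% intervals, filled where the adjusted p was below 0.05, red higher and blue lower, and the dashed line is the median of all genes. The filled points are all to the left in HFD vs LFD (14) and all to the right in HFD MTX50 vs HFD (19), and those to the left in LFD MTX50 vs LFD are C6, C8a and Masp2.

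HFD MTX50 vs HFD is called treatment on HFD from here on, and LFD MTX50 vs LFD treatment on LFD. Mouse by mouse, the median of the 43 members lay between -0.05 and 0.08 of the LFD mean in LFD mice and between 0.21 and 0.32 in LFD MTX50 mice. In HFD mice it was -0.24, -0.36, -0.50 and -0.25, so all HFD mice lay below every LFD mouse. In HFD MTX50 mice it was -0.18, 0.19, -0.02, -0.14 and 0.41, all above the HFD mice, so mouse 1 lay nearest to the untreated mice and mouse 5 farthest. The median of all genes stayed between -0.02 and 0.14 of the LFD mean in the 18 mice. The median SD of a member within a group was 0.10 in LFD and 0.15 in HFD mice, and 0.17 and 0.29 in the treated mice of these diets. Over all genes it was 0.14 and 0.18, and 0.22 and 0.27, so the members were the more variable in HFD MTX50 alone.

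Markers of blood cells also differed between some groups. After treatment on HFD 1 of 5 erythroid markers was called higher and 1 of 6 platelet markers lower, beside 11% of all genes called. Of 8 neutrophil and myeloid precursor markers 0 were called there by limma (4 had an unadjusted p below 0.05). After treatment on LFD 3 of 5, 2 of 6 and 3 of 8 were called, beside 28.1% of all genes. The platelet calls were higher, and the other lists each had 1 higher and 2 lower. The log2 of the summed erythroid markers, 5 of 6 measured, lay between 3.99 and 4.51 in LFD and between 3.38 and 4.50 in HFD mice, and after treatment between 0.18 and 0.74 on LFD and between 0.52 and 5.78 on HFD. The mean level of Hba-a1 was 3.97 in LFD and -0.86 in LFD MTX50, and that of Alas2 1.62 and -1.37. These 2 alone were lower after treatment on LFD, whereas 3 of the 5 erythroid markers had a higher mean there (median 0.15). Platelet markers, 6 of 6 measured, summed to between -1.28 and -1.07 in LFD and between -0.98 and 1.24 in LFD MTX50 mice, and to between -1.27 and -0.59 in HFD and between -1.13 and 1.53 in HFD MTX50 mice. Neutrophil and myeloid precursor markers, 8 of 9 measured, summed to between 5.65 and 6.13 in HFD and between 5.54 and 6.99 in HFD MTX50 mice, and to between 6.13 and 6.39 in LFD and between 5.70 and 5.89 in LFD MTX50 mice. The mean level of Elane alone was 6.25 in LFD and 5.70 in LFD MTX50, whereas 6 of the 8 markers had a higher mean after treatment on LFD (median 0.80). Their part in the members' levels was not tested.

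**Figure D2:**
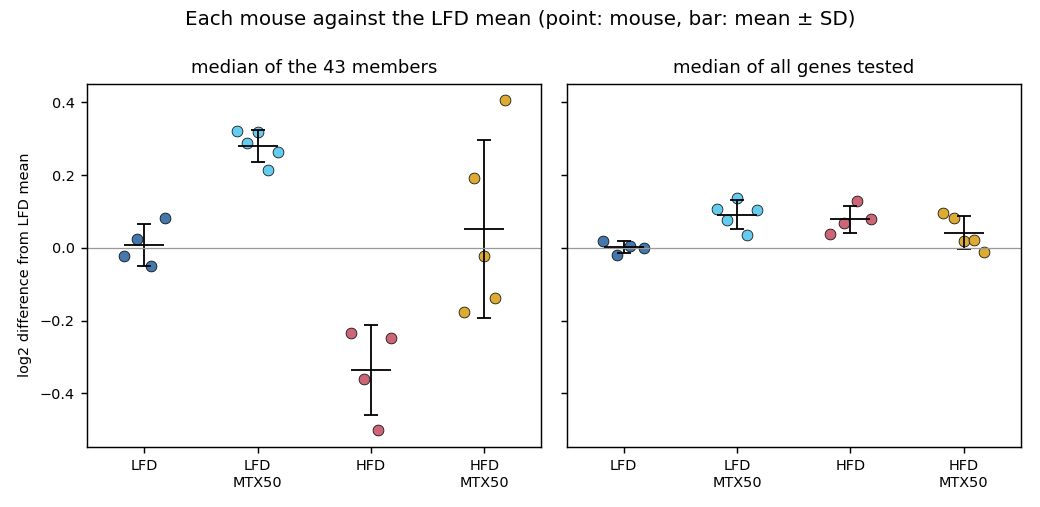
Median over the 43 members (left) and over all 19598 genes tested (right) of each mouse's log2 difference from the LFD mean. Each point is a mouse and bars are mean ± SD (n = 4 LFD, 5 LFD MTX50, 4 HFD, 5 HFD MTX50); on the left the 4 HFD mice lie below the other groups and the 5 HFD MTX50 mice spread from -0.18 to 0.41.

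Fibrinogen, the soluble precursor of the clot, is built of an alpha, a beta and a gamma chain encoded by neighbouring genes, Fga, Fgb and Fgg, and is a classical acute phase protein. The levels of Fgg, which the rule for values by mouse did not pick, were added to complete the trio after they had been seen. Fga stood at 3.30, 3.29, 3.39 and 3.40 in the LFD mice and at 2.84, 2.33, 2.61 and 2.91 in the HFD mice. In treated mice Fga stood at 4.23, 3.85, 3.93, 3.80 and 3.98 on LFD and at 3.83, 3.68, 3.71, 2.93 and 4.32 on HFD. For Fga the HFD mice lay below all LFD mice and, with 2.93 against 2.91 at the nearest, the HFD MTX50 mice lay above all HFD mice. Fgb stood at 6.97, 6.80, 6.75 and 6.94 in the LFD mice and at 6.31, 6.29, 6.46 and 6.58 in the HFD mice. In treated mice Fgb stood at 7.79, 7.64, 7.71, 7.66 and 7.75 on LFD and at 7.28, 7.09, 7.02, 6.73 and 7.75 on HFD. For Fgb the HFD mice again lay below all LFD and all HFD MTX50 mice, and all treated LFD mice lay above all LFD mice. Fgg stood at 7.76, 7.76, 7.61 and 7.82 in the LFD mice and at 7.28, 7.09, 7.11 and 7.35 in the HFD mice. In treated mice Fgg stood at 8.15, 7.93, 8.01, 7.96 and 8.06 on LFD and at 7.65, 7.67, 7.64, 7.56 and 8.36 on HFD. For Fgg too the groups of HFD mice did not overlap, and in each of the 3 genes HFD MTX50 mouse 4 was the lowest of its group and mouse 5 the highest.

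In HFD vs LFD the differences were -0.67 ± 0.21 (SE, adjusted p = 0.026) for Fga, -0.46 ± 0.16 (SE, adjusted p = 0.0387) for Fgb and -0.53 ± 0.14 (SE, adjusted p = 0.0146) for Fgg. The exact two-sided permutation p was 0.0286 for each, the smallest that 4 against 4 mice allow. After treatment on HFD Fga differed by 1.02 ± 0.20 (SE, adjusted p = 0.00904), or 2.03-fold. Fgb differed there by 0.77 ± 0.15 (SE, adjusted p = 0.00904) and Fgg by 0.57 ± 0.13 (SE, adjusted p = 0.0191), with an exact permutation p of 0.0159 for each, again the smallest possible. After treatment on LFD Fga (0.61, adjusted p = 0.0305) and Fgb (0.84, adjusted p = 0.00204) were called, while Fgg differed by 0.28 (adjusted p = 0.117) although its groups did not overlap. Treated HFD mice stayed below treated LFD mice for Fgb, at -0.53 (adjusted p = 0.0199); Fga differed by -0.26 (adjusted p = 0.334) and Fgg by -0.24 (adjusted p = 0.186). The second Fga probe gave -0.05 (adjusted p = 0.838) in HFD vs LFD, 0.62 (adjusted p = 0.0333) after treatment on HFD and 0.08 (adjusted p = 0.747) after treatment on LFD, so only the change after treatment on HFD was called on both probes of Fga. In HFD vs LFD all 3 lost the call without HFD mouse 3, Fgb without any of the 8 LFD and HFD mice, and all 3 with slide as a random block (adjusted p = 0.149, 0.187 and 0.119 for Fga, Fgb and Fgg). F13b, the carrier subunit of the factor that cross-links fibrin, differed by -0.15 (adjusted p = 0.397) after treatment on HFD, which was not called, and by -0.40 (adjusted p = 0.0263) between the treated groups.

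**Figure D3:**
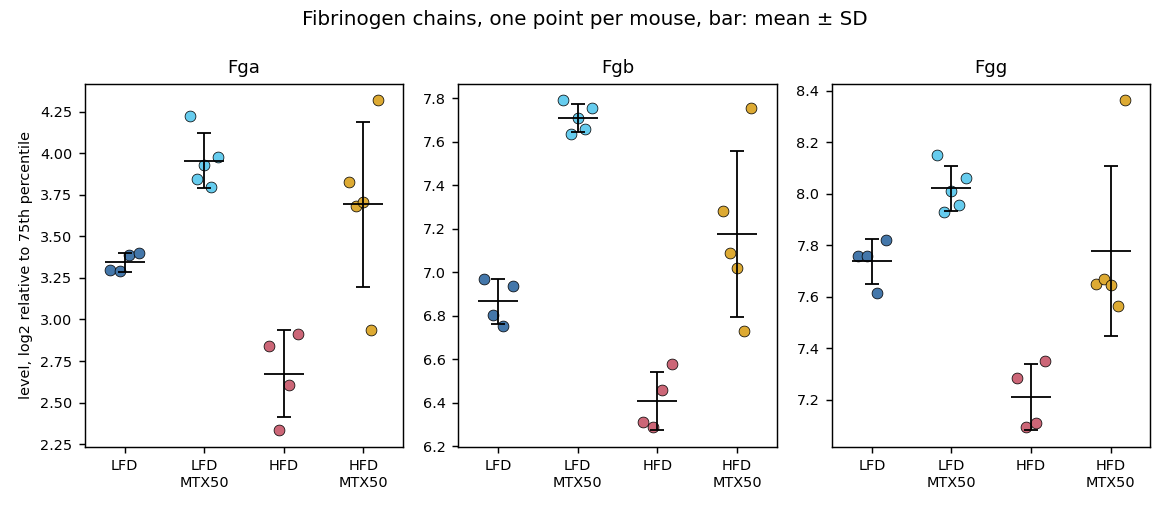
Levels of Fga, Fgb and Fgg (log2 relative to the array's 75th percentile) in each mouse of the 4 groups. Points are mice and bars mean ± SD; in each panel the 4 HFD mice are the lowest group and the 5 HFD MTX50 mice lie above them, mouse 5 highest.

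The RefSeq promoters of the fibrinogen genes are shown because the trio, on its brightest probes, was called lower in HFD vs LFD and higher after treatment on HFD. Each is the 250 bases before the annotated start, read along the gene, in build GRCm38.p6: Fga at chr3:83025903-83026152 on the plus strand, Fgb at chr3:83049864-83050113 on the minus strand and Fgg at chr3:83007474-83007723 on the plus strand. Capitals mark letters that match a motif on either strand: the HNF1 motif GTTAAT, the STAT motif TTCNNNGAA, the C/EBP motif TTNNGNAA or the HNF4 motif CAAAGT.
Fga: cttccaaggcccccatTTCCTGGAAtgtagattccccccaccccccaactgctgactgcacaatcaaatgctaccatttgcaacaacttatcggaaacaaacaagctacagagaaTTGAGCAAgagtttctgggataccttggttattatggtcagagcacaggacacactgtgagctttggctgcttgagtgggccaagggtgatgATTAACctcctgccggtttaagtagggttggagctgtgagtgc
Fgb: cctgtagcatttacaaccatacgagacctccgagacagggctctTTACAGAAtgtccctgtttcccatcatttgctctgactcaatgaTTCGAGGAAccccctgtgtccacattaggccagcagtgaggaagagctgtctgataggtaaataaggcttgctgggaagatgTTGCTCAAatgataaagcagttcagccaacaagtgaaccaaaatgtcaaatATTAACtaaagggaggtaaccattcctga
Fgg: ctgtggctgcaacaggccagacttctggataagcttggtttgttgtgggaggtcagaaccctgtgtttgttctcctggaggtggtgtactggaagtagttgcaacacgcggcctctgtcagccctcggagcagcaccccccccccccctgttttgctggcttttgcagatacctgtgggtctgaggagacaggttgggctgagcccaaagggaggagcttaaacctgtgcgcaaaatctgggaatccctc
The Fga window held 1 STAT match, 1 C/EBP match and 1 HNF1 motif, and the Fgb window held 1 STAT match, 2 C/EBP matches and 1 HNF1 motif. The Fgg window held no match to any of the 4 motifs. Of all 32851 promoter windows in the table, 6.43% held the HNF1 motif, 7.02% the STAT motif, 36.8% the C/EBP motif and 12.6% the HNF4 motif. Of the 33 members with a window in the table, 10 held the HNF1 motif, 6 the STAT motif, 15 the C/EBP motif and 5 the HNF4 motif. A member was counted if any of its windows held the motif, whereas the shares of all promoters are by window, so the units differ. In no window printed did matches overlap, and no binding was measured.

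C1q, the antibody sensor of the classical pathway, is assembled from the products of C1qa, C1qb and C1qc, and C1ra encodes the protease C1r that C1q activates. C1ra stood at 5.00, 4.94, 4.74 and 4.93 in the LFD mice and at 4.34, 4.01, 3.38 and 3.53 in the HFD mice. In treated mice C1ra stood at 4.61, 4.37, 4.33, 4.29 and 4.60 on LFD and at 4.40, 5.05, 4.53, 4.67 and 4.77 on HFD. The HFD mice lay below all LFD and all HFD MTX50 mice, and the treated LFD mice lay below all LFD mice. C1ra differed by -1.08 ± 0.18 (SE, adjusted p = 0.00288) in HFD vs LFD, 2.12-fold lower, and by 0.87 ± 0.17 (SE, adjusted p = 0.00981) after treatment on HFD. After treatment on LFD it differed by -0.47 ± 0.17 (SE, adjusted p = 0.0511), with groups that did not overlap (exact permutation p = 0.0159). The treatment effect on HFD exceeded that on LFD by 1.33 ± 0.24 (SE, adjusted p = 0.00506), with a 95% interval of 0.82 to 1.84. A second, dimmer C1ra probe gave -0.66 (adjusted p = 0.00613), 0.49 (adjusted p = 0.0313) and 0.04 (adjusted p = 0.822) in these 3 comparisons and 0.45 (adjusted p = 0.0862) for the difference of effects, which was not called. Mice also carry C1rb, a near-identical copy that a C1ra probe may read.

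C2, cleaved by C1s to form the C3 convertase of the classical pathway, was chosen after its values were seen. C2 stood at 3.34, 3.50, 3.17 and 3.52 in the LFD mice and at 2.99, 2.79, 2.71 and 2.87 in the HFD mice. In treated mice C2 stood at 3.63, 3.31, 3.29, 3.23 and 2.91 on LFD and at 3.33, 3.59, 3.05, 3.18 and 3.61 on HFD. The HFD mice again lay below all LFD mice and all HFD MTX50 mice. C2 differed by -0.55 (adjusted p = 0.0164) in HFD vs LFD, 0.51 (adjusted p = 0.0337) after treatment on HFD and -0.11 (adjusted p = 0.576) after treatment on LFD, and the difference of effects was 0.62 (adjusted p = 0.0328). The call for that difference of effects was lost under quantile normalization and did not hold in every fit that left out a mouse. C4b, which supplies the partner chain of that convertase and shares sequence with C4a, differed by 0.61 (adjusted p = 0.0386) after treatment on HFD and 0.59 (adjusted p = 0.0229) after treatment on LFD.

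The C1q chains and properdin (Cfp), which stabilises the convertase of the alternative pathway, were not called in HFD vs LFD; their values by mouse were chosen after they were seen. C1qc stood at 1.03, 0.28, 0.92 and 1.07 in the LFD mice and at 0.67, 0.32, 0.65 and -0.07 in the HFD mice. In treated mice C1qc stood at 0.66, 1.31, 0.76, 1.01 and 0.54 on LFD and at 1.35, 0.80, 0.79, 1.17 and 1.63 on HFD. For C1qc HFD mouse 4 was the lowest of the 18 mice. Cfp stood at 0.75, 0.12, 0.54 and 0.69 in the LFD mice and at 0.45, 0.34, 0.58 and 0.29 in the HFD mice. In treated mice Cfp stood at 0.78, 1.23, 1.07, 1.00 and 0.60 on LFD and at 1.39, 0.90, 0.71, 0.91 and 1.15 on HFD. After treatment on HFD all treated mice lay above all untreated mice for each gene, with 0.76 (adjusted p = 0.0379) for C1qc and 0.60 (adjusted p = 0.0285) for Cfp. C1qa differed there by 0.21 (adjusted p = 0.602) and C1qb by -0.19 (adjusted p = 0.819), so the chains of C1q did not share a call. C1qb stood at -3.32, -0.26, 0.03 and 0.01 in the LFD mice and at 0.02, 0.20, 0.66 and 0.39 in the HFD mice. In treated mice C1qb stood at 0.14, 0.72, 0.57, 0.41 and 0.07 on LFD and at 0.51, 0.30, -0.19, -0.01 and 0.04 on HFD. LFD mouse 1 stood far below the other LFD mice for C1qb, which were at -0.26 or above, while its C1qc was not low. C1qb differed by 1.27 (adjusted p = 0.0597) after treatment on LFD, and when each mouse was left out in turn this ran from 0.46 to 1.57, with a call only without LFD mouse 3 or LFD mouse 4.

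Markers of Kupffer cells and macrophages are set beside the C1q chains and Cfp. After treatment on HFD all 10 had a higher mean and 0 of them were called by limma (5 had an unadjusted p below 0.05). All 10 lay well above background on every array. The log2 of their summed level ran from 5.15 to 5.91 in HFD and from 5.84 to 6.37 in HFD MTX50, beside 5.57 to 6.05 in LFD and 5.19 to 5.50 in LFD MTX50. The sum leans on Cd68 and Csf1r, with mean levels of 4.11 and 4.07 in HFD and 4.63 and 4.50 in HFD MTX50. After treatment on LFD 6 of the 10 had a higher mean and their median difference was 0.29. There Cd163 was called higher (0.85, adjusted p = 0.0135) and the brightly read Cd68 (-0.94, adjusted p = 0.0168) and Csf1r (-0.54, adjusted p = 0.0399) lower, and C1qc differed by 0.03 (adjusted p = 0.932). The part of these cells in the levels of C1q and properdin was not tested.

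**Figure D4:**
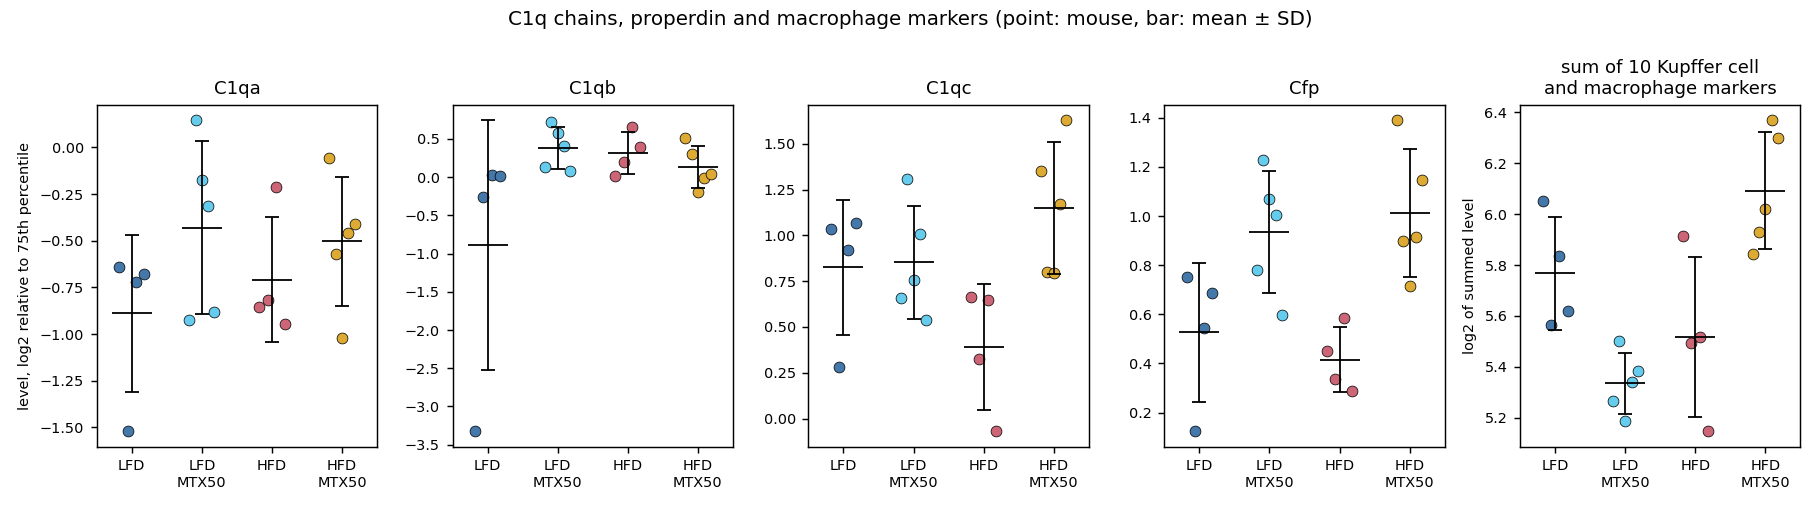
Levels of C1qa, C1qb, C1qc and Cfp (log2 relative to the array's 75th percentile) and the log2 of the summed level of 10 Kupffer cell and macrophage markers in each mouse. Points are mice and bars mean ± SD; C1qb of LFD mouse 1 (-3.32) stands apart, and for C1qc and Cfp every HFD MTX50 mouse lies above every HFD mouse.

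C3 is the component on which all routes of complement activation converge, and factor B (Cfb) joins it in the alternative pathway; the levels of C3 were chosen after they were seen. C3 stood at 7.56, 7.84, 7.62 and 7.94 in the LFD mice and at 7.50, 7.38, 7.13 and 7.55 in the HFD mice. In treated mice C3 stood at 8.28, 8.12, 8.42, 8.19 and 8.26 on LFD and at 7.70, 8.05, 7.91, 7.81 and 8.43 on HFD. Treated mice lay above untreated mice of the same diet for C3 and for Cfb, with no overlap. C3 differed by 0.59 ± 0.14 (SE, adjusted p = 0.0184) after treatment on HFD and 0.51 ± 0.14 (SE, adjusted p = 0.014) after treatment on LFD. Its second probe gave 0.83 (adjusted p = 0.00925) and 0.98 (adjusted p = 0.00147). Cfb differed by 0.36 (adjusted p = 0.0264) and 0.44 (adjusted p = 0.00526) in the same comparisons, and quantile normalization left the first at 0.10 (adjusted p = 0.498). In HFD vs LFD neither was called, with -0.35 (adjusted p = 0.078) for C3 and -0.24 (adjusted p = 0.0764) for Cfb.

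Of the terminal components, Hc encodes C5, which starts the pore, and C6, C8 and C9 follow. Hc stood at 5.39, 5.32, 5.14 and 5.50 in the LFD mice and at 4.86, 4.82, 4.70 and 5.09 in the HFD mice. In treated mice Hc stood at 5.96, 5.68, 5.99, 5.65 and 5.86 on LFD and at 5.09, 5.84, 5.53, 5.40 and 6.44 on HFD. Hc was called after treatment on HFD, at 0.79 ± 0.20 (SE, adjusted p = 0.0222); HFD MTX50 mouse 1, at 5.09, overlapped the highest HFD mouse, and mouse 5 was highest at 6.44. C6 stood at 1.10, 1.15, 1.12 and 1.25 in the LFD mice and at 0.77, 0.59, 0.65 and 1.14 in the HFD mice. In treated mice C6 stood at -0.15, 0.14, 0.43, 0.50 and -0.62 on LFD and at -0.32, 0.66, 0.98, 0.53 and 1.38 on HFD. C6 fell after treatment on LFD, by 1.09 ± 0.27 (SE, adjusted p = 0.0102) on the log2 scale, 2.13-fold, and every treated LFD mouse lay below every LFD mouse (exact permutation p = 0.0159). It stayed called whichever mouse was left out, with an adjusted p of up to 0.0282, and not with slide as a random block (0.081). After treatment on HFD C6 differed by -0.14 ± 0.27 (SE, adjusted p = 0.754), and the difference of effects was 0.95 (adjusted p = 0.072).

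The C8 complex has an alpha, a beta and a gamma chain. C8b stood at 3.07, 3.41, 3.04 and 3.38 in the LFD mice and at 2.65, 1.76, 1.48 and 2.41 in the HFD mice. In treated mice C8b stood at 3.23, 2.63, 3.10, 2.64 and 2.63 on LFD and at 2.25, 3.50, 3.10, 2.94 and 3.73 on HFD. For C8b the HFD mice lay below all LFD mice, and HFD MTX50 mouse 1, at 2.25, lay within the range of the HFD mice. C8a stood at 3.72, 3.63 and 4.08 in LFD mice 2 to 4 and at 3.21, 3.27, 3.05 and 3.56 in the HFD mice. In treated mice C8a stood at 3.09, 3.10, 3.20, 3.47 and 2.84 on LFD and at 3.30, 3.61, 4.08, 3.89 and 4.71 on HFD. LFD mouse 1 has no C8a value because its spot was marked as an outlier. For C8a the treated LFD mice lay below the 3 LFD mice, whereas on HFD 4 of 5 treated mice lay above the highest untreated mouse, at 3.56.

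C8b differed by -1.15 ± 0.29 (SE, adjusted p = 0.0111) in HFD vs LFD, by 1.03 ± 0.27 (SE, adjusted p = 0.0284) after treatment on HFD and by -0.38 ± 0.27 (SE, adjusted p = 0.301) after treatment on LFD. C8a, fitted with 3 LFD mice, differed by -0.53 (adjusted p = 0.118), 0.64 (adjusted p = 0.0686) and -0.67 (adjusted p = 0.0486) in the same order, and by 0.78 (adjusted p = 0.0237) in HFD MTX50 vs LFD MTX50. The treatment effect on HFD exceeded that on LFD by 1.31 ± 0.33 (SE, adjusted p = 0.0122) for C8a and 1.41 ± 0.39 (SE, adjusted p = 0.0166) for C8b. The call of C8a after treatment on LFD was lost in 14 of the 18 fits that left out 1 mouse. The differences of effects stayed called whichever mouse was left out and lost the call with slide as a random block (adjusted p = 0.0646 and 0.0848). A second C8a probe gave 1.22 (adjusted p = 0.00933) for the difference of effects. C8g and C9 were called in none of the 5 comparisons, and the 2 probes of C8g disagreed in sign in HFD vs LFD (-0.15 and 0.44), after treatment on LFD (-0.37 and 0.32) and for the difference of effects (0.12 and -0.76), none of them called. Median differences over the 6 terminal genes were -0.42 in HFD vs LFD, 0.41 after treatment on HFD and -0.49 after treatment on LFD. On their brightest probes all 6 had a positive difference of effects, which was called for C8a and C8b.

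**Figure D5:**
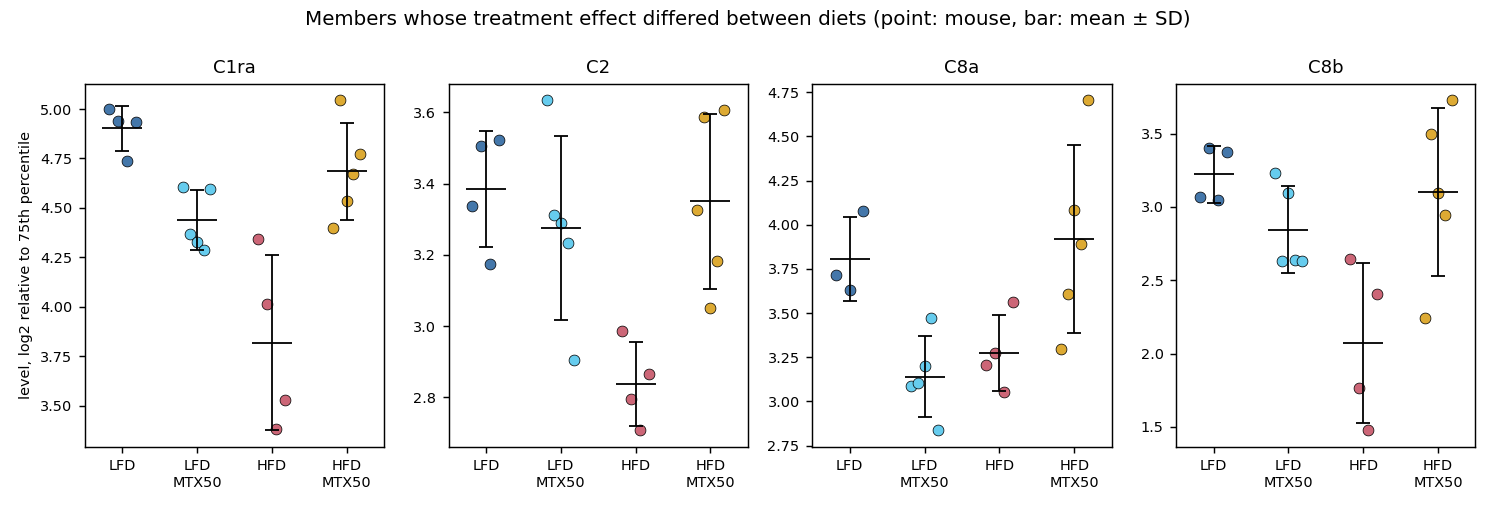
Levels of C1ra, C2, C8a and C8b (log2 relative to the array's 75th percentile), the 4 members called for the difference of treatment effects, in each mouse. Points are mice and bars mean ± SD (3 LFD mice for C8a); on average treated HFD mice lie higher than HFD mice in each panel and treated LFD mice lie lower than LFD mice.

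The promoters of C1ra, C8a and C8b are printed because these members carried the largest differences of effects among those called; motifs are marked as above, in 250 bases before the start, build GRCm38.p6. C1ra lies at chr6:124512371-124512620 on the plus strand, C8a at chr4:104876399-104876648 on the minus strand and C8b at chr4:104766067-104766316 on the plus strand.
C1ra: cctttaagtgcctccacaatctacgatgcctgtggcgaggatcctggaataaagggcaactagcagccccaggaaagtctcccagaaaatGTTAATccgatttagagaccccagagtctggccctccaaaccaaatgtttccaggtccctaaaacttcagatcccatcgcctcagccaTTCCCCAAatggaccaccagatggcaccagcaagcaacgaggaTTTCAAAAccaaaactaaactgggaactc
C8a: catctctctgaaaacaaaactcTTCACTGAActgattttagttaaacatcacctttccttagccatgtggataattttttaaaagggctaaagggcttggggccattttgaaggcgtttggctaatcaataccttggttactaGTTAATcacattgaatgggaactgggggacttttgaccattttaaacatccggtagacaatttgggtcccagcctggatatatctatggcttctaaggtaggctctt
C8b: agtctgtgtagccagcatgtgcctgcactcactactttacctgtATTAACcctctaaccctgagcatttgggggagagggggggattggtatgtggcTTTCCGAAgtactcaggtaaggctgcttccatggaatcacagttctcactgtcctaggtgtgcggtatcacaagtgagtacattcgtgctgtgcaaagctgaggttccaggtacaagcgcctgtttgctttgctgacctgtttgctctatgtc
Each of the 3 windows held 1 HNF1 motif. C8a held 1 STAT match and no C/EBP match, whereas C1ra and C8b held 2 and 1 C/EBP matches and no STAT match.

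Among the complement inhibitors, Cfi, the protease that degrades C3b and C4b, changed in each comparison with an untreated group; its levels were chosen after they were seen. Cfi stood at 6.15, 6.05, 5.86 and 6.14 in the LFD mice and at 5.75, 5.64, 5.44 and 5.58 in the HFD mice. In treated mice Cfi stood at 6.70, 6.53, 6.64, 6.51 and 6.89 on LFD and at 6.14, 6.59, 6.37, 6.16 and 6.50 on HFD. The HFD mice were below all other mice, and treated LFD mice were above all LFD mice. Cfi differed by -0.45 ± 0.12 (SE, adjusted p = 0.015) in HFD vs LFD, 0.75 ± 0.12 (SE, adjusted p = 0.00583) after treatment on HFD and 0.60 ± 0.12 (SE, adjusted p = 0.0032) after treatment on LFD. The rise after treatment on HFD kept its call without any single mouse and with slide as a random block (adjusted p = 0.00656). With slide as a random block Cfi lost its call in HFD vs LFD and after treatment on LFD. Its call in HFD vs LFD was also lost under quantile normalization and did not hold in every fit that left out a mouse. C4bp, a cofactor of Cfi, and vitronectin (Vtn), which blocks the pore, rose after treatment on HFD, by 0.39 (adjusted p = 0.0405) and 0.52 (adjusted p = 0.0283). Serping1, the C1 inhibitor, was called after treatment on LFD at 0.43 (adjusted p = 0.0441), with 0.23 (adjusted p = 0.329) on its second probe.

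In the lectin pathway Masp1 and Masp2 encode proteases bound to the mannose-binding lectins Mbl1 and Mbl2. Masp1 stood at -2.11, -1.83, -1.69 and -1.49 in the LFD mice and at -2.24, -2.41, -2.50 and -2.26 in the HFD mice. In treated mice Masp1 stood at -1.19, -1.50, -1.46, -1.79 and -1.08 on LFD and at -2.30, -1.53, -1.77, -2.16 and -1.70 on HFD. The HFD mice lay below all LFD mice for Masp1. Masp1 was lower in HFD vs LFD, at -0.57 ± 0.18 (SE, adjusted p = 0.0303), and lower in HFD MTX50 vs LFD MTX50, at -0.49 (adjusted p = 0.0493), which became 0.12 under normexp background correction and lost its call in 14 of the 18 fits that left out 1 mouse. Masp2 was lower after treatment on LFD, at -0.44 (adjusted p = 0.0331), with -0.25 (adjusted p = 0.183) and -0.48 (adjusted p = 0.0311) on its other probes. Mbl1 had a higher level in every HFD mouse than in every LFD mouse, yet its difference of 0.52 (adjusted p = 0.0891) was not called. No lectin pathway member was called after treatment on HFD by limma, with 1 of 4, Masp1, at an unadjusted p below 0.05 (0.0172).

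F2 is prothrombin, F7 starts clotting with tissue factor, and F9 and F10 act between them; all depend on vitamin K. F7 stood at 0.07, 0.23, 0.09 and 0.17 in the LFD mice and at -0.07, -0.45, -0.45 and -0.23 in the HFD mice. In treated mice F7 stood at 0.76, 0.61, 0.51, 0.35 and 0.45 on LFD and at -0.21, 0.23, -0.05, -0.11 and 0.41 on HFD. HFD mice were below all LFD mice, and treated LFD mice above all LFD mice. F7 differed by -0.44 ± 0.14 (SE, adjusted p = 0.026) in HFD vs LFD, 0.40 ± 0.13 (SE, adjusted p = 0.0308) after treatment on LFD and -0.48 ± 0.12 (SE, adjusted p = 0.0171) in HFD MTX50 vs LFD MTX50, and its second probe gave -0.48 (adjusted p = 0.0276), 0.54 (adjusted p = 0.0134) and -0.63 (adjusted p = 0.00968). F10 was lower in HFD vs LFD (-0.49, adjusted p = 0.0314) and in HFD MTX50 vs LFD MTX50 (-0.46, adjusted p = 0.0377). F2 was higher after treatment on each diet, at 0.41 (adjusted p = 0.0405) on HFD and 0.35 (adjusted p = 0.0397) on LFD, and of the 18 fits that left out 1 mouse 11 and 8 lost these calls. F5, the cofactor of F10, and F9 were called in no comparison, although a dimmer F5 probe gave 0.48 (adjusted p = 0.0231) after treatment on LFD.

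The contact pathway starts with F12, prekallikrein (Klkb1) and kininogen (Kng1), the source of bradykinin. Kng1 stood at 7.05, 6.94, 6.67 and 6.89 in the LFD mice and at 6.50, 6.61, 6.49 and 6.53 in the HFD mice. In treated mice Kng1 stood at 7.53, 7.44, 7.67, 7.42 and 7.48 on LFD and at 6.80, 7.08, 6.87, 6.92 and 7.22 on HFD. HFD mice lay below all LFD mice, treated mice lay above the untreated mice of their diet, and treated HFD mice lay below all treated LFD mice. Kng1 differed by -0.36 ± 0.11 (SE, adjusted p = 0.022) in HFD vs LFD, 0.45 ± 0.10 (SE, adjusted p = 0.0158) after treatment on HFD and 0.62 ± 0.10 (SE, adjusted p = 0.00141) after treatment on LFD. Between treated groups it differed by -0.53 ± 0.10 (SE, adjusted p = 0.00621), with an exact permutation p of 0.00794, the smallest that 5 against 5 mice allow. Kng2 is a near-identical copy whose signal a Kng1 probe may include, and the second Kng1 probe gave 0.32 (adjusted p = 0.141) after treatment on LFD. F12 was called after treatment on LFD (0.39, adjusted p = 0.018) and in HFD MTX50 vs LFD MTX50 (-0.47, adjusted p = 0.0114), while F11 and Klkb1 were called in none.

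Plasminogen (Plg) is the precursor of plasmin, and Serpinf2 encodes antiplasmin, its inhibitor. Plg stood at 5.15, 5.30, 5.22 and 5.36 in the LFD mice and at 5.14, 5.00, 4.87 and 5.18 in the HFD mice. In treated mice Plg stood at 6.06, 5.83, 5.94, 5.74 and 5.90 on LFD and at 5.27, 5.73, 5.55, 5.21 and 5.67 on HFD. Treated LFD mice lay above all other mice, and treated HFD mice lay above all HFD mice. Plg differed by 0.64 ± 0.12 (SE, adjusted p = 0.00248) after treatment on LFD, 0.44 ± 0.12 (SE, adjusted p = 0.0273) after treatment on HFD and -0.41 ± 0.11 (SE, adjusted p = 0.0223) in HFD MTX50 vs LFD MTX50. Serpinf2 stood at 6.52, 6.56, 6.38 and 6.43 in the LFD mice and at 6.24, 5.79, 5.26 and 5.56 in the HFD mice. In treated mice Serpinf2 stood at 6.93, 6.62, 6.36, 6.36 and 6.73 on LFD and at 6.10, 6.22, 6.69, 6.46 and 6.95 on HFD. For Serpinf2 the HFD mice lay below all LFD mice, and HFD mouse 3 was lowest. Serpinf2 differed by -0.76 ± 0.20 (SE, adjusted p = 0.0145) in HFD vs LFD, 0.77 ± 0.19 (SE, adjusted p = 0.0231) after treatment on HFD and 0.13 ± 0.19 (SE, adjusted p = 0.622) after treatment on LFD. Cpb2, which protects fibrin from plasmin, was called in none of the comparisons, and its HFD MTX50 values ran from 3.81 to 5.30, highest in mouse 5.

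The anticoagulants antithrombin (Serpinc1) and heparin cofactor 2 (Serpind1), which inhibit thrombin, were lower in HFD vs LFD by 0.48 ± 0.11 (SE, adjusted p = 0.0071) and 0.48 ± 0.11 (SE, adjusted p = 0.00887) on the log2 scale. Each stayed called whichever mouse was left out, with an adjusted p of up to 0.0309 and 0.0387, and not with slide as a random block (0.0695 and 0.0639). No anticoagulant was called after treatment on HFD in the fit of all mice, where the 4 differed by 0.03 to 0.26; 2 of the 4 had an unadjusted p below 0.05. Within the slide that both HFD groups shared Serpind1 was called higher, as given above. Protein S (Pros1) was higher after treatment on LFD (0.43, adjusted p = 0.0357), and protein C (Proc), the protease it assists, was lower in HFD MTX50 vs LFD MTX50 (-0.44, adjusted p = 0.0335).

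Of 64 further genes of the cascades, listed for this purpose, 61 had a probe that passed the filter. In HFD vs LFD 16 were called, 7 higher and 9 lower, after treatment on HFD 9, 6 higher and 3 lower, and after treatment on LFD 16, 9 higher and 7 lower. These were 26.2%, 14.8% and 26.2% of the 61, near the 28.3%, 11% and 28.1% of all genes called. The medians of the further genes were -0.04, 0.06 and 0.13. Cfd, the factor D of the alternative pathway, known as adipsin and a marker of fat cells, stood far apart from the members. Cfd stood at -4.90, -3.66, -2.28 and -5.11 in the LFD mice and at 2.03, 2.55, 1.55 and 1.90 in the HFD mice. In treated mice Cfd stood at -5.57, -6.19, -5.24, -5.99 and -4.82 on LFD and at -5.58, -3.43, -2.56, 0.19 and -5.16 on HFD. All 4 HFD mice lay above 1.5 and all LFD mice below -2.2. Cfd differed by 6.00 ± 0.92 (SE, adjusted p = 0.00253) in HFD vs LFD and by -5.32 ± 0.87 (SE, adjusted p = 0.00665) after treatment on HFD; HFD MTX50 mouse 4, at 0.19, was the highest treated mouse. In HFD vs LFD von Willebrand factor (Vwf, 0.92, adjusted p = 0.00498), which tethers platelets, was higher, as was the thrombin receptor gene F2rl3 (0.61, adjusted p = 0.0148), and Serpine2 (-0.86, adjusted p = 0.0124) was lower. After treatment on HFD the inhibitor of F10 Serpina10 (0.72, adjusted p = 0.0337) and Kng2 (0.61, adjusted p = 0.00575) were higher. After treatment on LFD tissue factor (F3, -1.18, adjusted p = 0.00812) and its inhibitor gene Tfpi2 (-0.96, adjusted p = 0.00399) were lower, and the receptor genes Cd93 (0.87, adjusted p = 0.027) and C5ar1 (0.82, adjusted p = 0.0362) were higher. C5ar1 was dim, at -6.24 to -5.62 in LFD mice, where the lowest signals well above background lay at -6.76 to -6.46. In HFD MTX50 vs LFD MTX50 8 were called, 1 higher and 7 lower, and for the difference of effects 10, 2 positive and 8 negative. These were 13.1% and 16.4% of the further genes, beside 16.1% and 26.8% of all genes.

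Of 18 acute phase genes outside the cascades 9 were called after treatment on HFD and 10 after treatment on LFD, all higher, and 1, Saa3, in HFD vs LFD. These were 50%, 55.6% and 5.56% of the 18, beside 11%, 28.1% and 28.3% of all genes. The medians of the acute phase genes were 1.14 and 0.97 in the treatment comparisons and -0.01 in HFD vs LFD. Fgl1, a hepatocyte protein related to fibrinogen, differed by 2.21 (adjusted p = 0.0046) and 2.53 (adjusted p = 0.00041), Itih3 by 1.60 (adjusted p = 0.00665) and 1.49 (adjusted p = 0.0024), and Socs3, a target and brake of STAT3, by 1.84 (adjusted p = 0.00854) and 1.42 (adjusted p = 0.00886) after treatment on HFD and on LFD. In HFD MTX50 vs LFD MTX50 4 were called, all higher, led by Saa2 (2.62, adjusted p = 0.0252) and Saa1 (2.27, adjusted p = 0.0312), and 1 for the difference of effects, Il1rn (-0.89, adjusted p = 0.0271). The shares were 22.2% and 5.56% of the 18, beside 16.1% and 26.8% of all genes. Between the treated groups the median of the 18 was -0.003, with 8 higher and 10 lower. HFD MTX50 mouse 5 stood at 8.44 for Saa2 and 8.49 for Saa1, the other HFD MTX50 mice at 5.02 or below and 4.85 or below. Untreated mice had means of 1.37 (LFD) and 3.03 (HFD) for Saa2 and 2.05 and 3.31 for Saa1.

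Of 11 transcription factor genes that act on hepatocyte genes, Hnf4a was called lower in HFD vs LFD (-0.55, adjusted p = 0.0178) and higher after treatment on HFD (0.51, adjusted p = 0.0381). Stat3 (0.95, adjusted p = 0.000507), Cebpd (1.54, adjusted p = 0.00991) and Cebpb (1.04, adjusted p = 0.0208) were higher after treatment on LFD. The calls in HFD vs LFD, after treatment on HFD and after treatment on LFD were 9.09%, 9.09% and 27.3% of the 11. Of all genes 28.3%, 11% and 28.1% were called there, so the list lay near or below that share. Stat3 differed by 0.33 (adjusted p = 0.093) on HFD and by -0.62 (adjusted p = 0.0196) for the difference of effects. Their part in the levels of the members was not tested.

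After group means were removed, the likeness of members from mouse to mouse differed widely between pairs. Over the 18 mice the median Pearson r of the 903 pairs of members was 0.26, and 37 pairs exceeded 0.8. C1qa was most like Cfp (r = 0.93), C4b most like Cpb2 (0.91), Fga and Fgb had r = 0.86 and C6 and C8a 0.87, whereas Proc and Pros1 had -0.76. The arrays share the scaling and the HFD MTX50 mice have the widest spread, so these r are given as a description.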

How the data were processed

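Liver RNA of 18 mice was read on 1-colour Agilent arrays (Cy3), and spots were quantified with Agilent Feature Extraction 10.7.3.1, per the submitters' processing notes. The deposited files hold processed signal intensities, which the authors' scanner software had corrected for background. Outlier spots (124 to 294 an array) were left out, spots of 1 probe averaged, and log2 intensities taken minus each array's 75th percentile. Of 39429 probes, 35739 were well above background on at least 4 arrays, and 83.9% to 90.6% were so on an array; 28025 were named through their accessions. The number of arrays limits the precision. Groups came from the sample labels, 1 array a mouse. A model of 4 group means was fitted with limma 3.58.1 (R 4.3.3), p-values adjusted by Benjamini-Hochberg across the kept probes, and the fit was tested on simulated data. Exact permutation tests were two-sided. Alternatives were quantile, median and normexp normalization (on median signals, with an offset of 50), the authors' table of background-subtracted intensities, other filters, slide and replicate blocks, only the groups compared, the methods' t-test, and each mouse left out. Members and lists were chosen with earlier results of these data known. Values by mouse are given for at most 12 members, those with the largest called differences, up to 5 a comparison, and for others where said. Promoters came from RefSeq (GRCm38.p6, 33 of the 43 members). A result on a further cascade gene is not reported here.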

Additional observations from a re-analysis of the deposited data

Results flagged for a closer look

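In 8 of 171 groups of mice a single mouse stood apart from its group by Dixon's test, given here as its gap to the nearest mouse over the group's range; chance flags about 1 group in 20. C1qb of LFD mouse 1, at -3.32, was lowest with a ratio of 0.915, and C1qa of LFD mouse 2, at -1.52, with 0.91. In HFD MTX50 mouse 5 was highest for Fgg (8.36, ratio 0.868) and for C9 (1.47, ratio 0.718), and mouse 2 was highest for F9 (2.54, ratio 0.728). F12 was lowest in HFD mouse 3 (3.04, ratio 0.905) and, in the treated LFD mice, in mouse 5 (3.60, ratio 0.74). F13b was highest in HFD mouse 1 (2.13, ratio 0.842).

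For 4 members the effect of treatment differed between the diets in limma's test of the difference itself. They were 9.30% of the members, where 26.8% of all genes were called, 8.66% positive and 18.1% negative. All 4 were positive, so their share was near that of all genes called positive. The effect on HFD exceeded that on LFD by 1.41 for C8b, 1.33 for C1ra, 1.31 for C8a and 0.62 for C2 on the log2 scale. C1ra, C8a and C8b kept the call whichever mouse was left out and under quantile normalization, and C2 in neither. The second C1ra probe was not called (0.45, adjusted p = 0.0862).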

How the results depend on the processing

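The counts of members called by limma depended on the processing, and so in part did their directions. The count of 14 in HFD vs LFD became 0 under normexp (21 at an unadjusted p below 0.05), 6 under quantile normalization, 28 when only these groups were fitted and 1 with slide as a random block. The methods' t-test gave 25 after Benjamini-Hochberg adjustment and 32 at the threshold the methods name. The median there was -0.57 under normexp and -0.18 under quantile normalization.

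In HFD MTX50 vs HFD the count of 19 became 0 under normexp, 0 when only these groups were fitted, 0 with slide as a fixed block and 0 by the methods' t-test (5, 22, 12 and 21 at an unadjusted p below 0.05). It was 12 under quantile normalization, 11 higher and 1 lower, with a median of 0.20, and 4 within the shared slide.

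In LFD MTX50 vs LFD the count of 16 became 1, a lower one, under normexp, where the median was 0.052, and 1 with slide as a random block. Scaling to the median gave 6 higher and 5 lower calls. By the methods' t-test 23 were called and 26 passed the unadjusted threshold.

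In HFD MTX50 vs LFD MTX50 the count of 12 became 7 under median scaling and 0 under normexp, with slide as a random block, when only these groups were fitted and by the methods' t-test (13, 14, 15 and 15 at an unadjusted p below 0.05). The median was -0.43 under normexp, where Masp1 turned to 0.12. For the difference of effects the count of 4 became 0 under normexp (4 at an unadjusted p below 0.05) and 1 with slide as a random block, and the median turned to -0.11 under quantile normalization. Why the counts and medians moved was not tested.

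Normexp moved the median of all genes to 0.38 in the diet comparison and, for treatment, to 0.38 in HFD MTX50 vs HFD, 0.46 in LFD MTX50 vs LFD and 0.33 in HFD MTX50 vs LFD MTX50. Relative to it the members stood at -0.94, -0.13, -0.41 and -0.77, so the higher levels after treatment were not seen there relative to all genes.

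With 1 mouse left out, the counts ran from 4 to 20 for diet (HFD vs LFD), 4 to 22 in HFD MTX50 vs HFD, 9 to 22 in LFD MTX50 vs LFD, 3 to 14 in HFD MTX50 vs LFD MTX50 and 3 to 6 for the difference of effects. The medians ran from -0.37 to -0.27, 0.31 to 0.41, 0.27 to 0.37, -0.29 to -0.15 and 0.04 to 0.19.

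With the replicate number as a block, the counts were 15 and 7 for HFD vs LFD and HFD MTX50 vs HFD, 10 for LFD MTX50 vs LFD, 10 between the treated groups and 4 for the difference of effects. Deviations of same-numbered mice correlated at -0.31 to 0.25, with 7 of 25 pairs above 0.1, so the mice share only a number.

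For the 12 members chosen for the largest called differences, in the 5 comparisons, 643 of the other values kept their side of the threshold. A call was lost in 121 and gained in 15, and in 1 the sign turned with a call in at least 1 of the fits. A turn of sign with no call in either fit was counted among the 643. The number of arrays limits the precision. The brightest probe of each of the 43 members was well above background on all 18 arrays.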
